A study of Mus musculus with 38 samples.

Results

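The circadian clock genes examined here are Arntl, Clock, Per1, Per2, Per3, Cry1, Cry2, Dbp, Nr1d1, and Nr1d2, 10 of the 54165 genes in the deposited count table. They were chosen by symbol as the core transcription factors, repressors, and output regulators of the mammalian clock. Their transcripts were counted in 38 RNA-seq libraries of 25 male and female mice, prepared from prefrontal cortex (PFC) or hypothalamus (Hypo). Ube3a2X mice are adults of the FVB/NJ strain that are homozygous for a Ube3a transgene, so that they carry 2 transgenic copies of this ubiquitin ligase gene whichever parent passed them on, and WT littermates of the same strain served as controls. There were 20 PFC libraries, 5 in every group of sex and genotype, and 18 Hypo libraries, where WT females and WT males had 4 each and Ube3a2X females and males 5 each. For 13 mice there are libraries of both tissues. Tissue was taken once from each animal, and the hour of the day is not given in the sources used here.

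In the clock, the proteins of Arntl (also named Bmal1) and Clock pair and bind E-boxes in the promoters of Per and Cry genes, and the PER and CRY proteins then return to repress that pair. In a second loop, Nr1d1 and Nr1d2 encode the REV-ERB repressors, which act on Arntl through elements shared with the ROR activators, and Dbp encodes an activator of D-box genes and is itself a direct E-box target. Arntl transcripts therefore peak at the opposite time of day to those of Dbp and Nr1d1, and in the brain the suprachiasmatic nucleus of the hypothalamus sets the time for other tissues.

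The elements of these loops were read from the RefSeq promoter sequences of GRCm38.p6, which span 250 bases before and 50 after each start and were given for 9 of the members in 13 windows. The letters searched on both strands were CACGTG (E-box), CACGTT (a variant E-box), TAGGTCA (the element of the ROR and REV-ERB proteins), and TTATGTAA (D-box). The windows below show a match in each arm of the clock, written 5′ to 3′ on the strand of the gene with the motif in capitals, and a variant E-box appears as its reverse complement.
Per1 (E-box): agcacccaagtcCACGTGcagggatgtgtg
Cry1 (E-box): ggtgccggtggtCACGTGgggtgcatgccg
Cry2 (variant E-box): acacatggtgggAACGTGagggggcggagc
Nr1d1 (variant E-box): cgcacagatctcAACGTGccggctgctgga
Per3 (D-box): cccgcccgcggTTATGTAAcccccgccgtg
Arntl (ROR and REV-ERB element): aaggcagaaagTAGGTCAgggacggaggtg
These windows lie at chr11:69098771-69098800 (plus strand) for Per1, chr10:85185097-85185126 (minus) for Cry1, and chr2:92434218-92434247 (minus) for Cry2. The others lie at chr11:98775388-98775417 (minus) for Nr1d1, chr4:151044805-151044834 (minus) for Per3, and chr7:113207530-113207559 (plus) for Arntl. The first 5 motifs lie upstream of the RefSeq start of their window, which for Per1 is a start inside the gene, and that of Arntl lies downstream of it. The E-box was found in 7.15% of all 32851 promoter windows, the variant E-box in 4.68%, the ROR and REV-ERB element in 2.61%, and the D-box in 0.938%. Per3 held a second D-box and Cry1 a variant E-box besides its E-box, and the windows of Clock, Dbp, and Nr1d2 held none of these letters.

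PFC libraries held 36.9 to 69.1 M counted reads (M, mega), and Hypo libraries 39.0 to 381 M. Ube3a was at 183 to 355 CPM (reads scaled to the normalised library size) in 17 of the 18 WT libraries and at 686 to 2169 CPM in the 20 Ube3a2X libraries. The remaining WT library, the Hypo of female 471, had Ube3a at 103 CPM and stood apart in other ways. It was the shallowest Hypo library, and its summed level of 3 pituitary markers was 4943 CPM, against at most 1021 CPM in any other Hypo library. Several results on the Hypo whose value or sign changed in its absence are therefore given with and without it. Markers of cortical excitatory neurons summed to 4989 to 9651 CPM in the PFC and 289 to 642 CPM in the Hypo. Markers of hypothalamic neurons summed to 0.635 to 1.71 CPM in the PFC and 363 to 1683 CPM in the Hypo, and the 9 markers of the suprachiasmatic nucleus to 50.5 to 116 CPM and 136 to 529.7 CPM. Only 2 of these 9, Vip and Rgs16, passed the filter on low counts and variance in the PFC, and Vip was higher there than in the Hypo by 1.61 (SE 0.349), so the PFC sum rests on few genes and is no measure of the nucleus.

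All 10 clock genes were well covered, with 329 reads or more in every library. Levels between genes were compared as CPM per kilobase of exon. In the PFC the highest levels were those of the REV-ERB genes, Nr1d2 at 29.98 ± 3.36 and Nr1d1 at 29.1 ± 6.53 (SD, n = 20), followed by Cry2 at 24.1 ± 3.23 and Dbp at 18.4 ± 4.13. Nr1d2 exceeded Nr1d1 in only 12 of 20 libraries, so the order of this pair was not separated from the spread. Per1 at 13.4 ± 4.36 and Clock at 9.20 ± 1.27 were intermediate. The lowest levels were Per2 at 6.30 ± 1.84, Per3 at 4.98 ± 0.715, Cry1 at 4.69 ± 0.894, and Arntl at 4.24 ± 0.458, and Per3 exceeded Cry1 in 13 of 20 libraries.

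In the Hypo, Nr1d2 was highest at 35.5 ± 3.52 CPM per kilobase (SD, n = 18) and above Nr1d1, at 24.6 ± 3.44, in 18 of 18 libraries. Dbp at 17.7 ± 4.13 and Cry2 at 17.2 ± 1.46 were not separated, since Dbp was the higher in 6 of 18 libraries. Clock at 10.7 ± 1.51 and Per1 at 10.6 ± 1.12 were likewise intermixed, with Clock higher in 11 of 18. Below them came Cry1 at 7.59 ± 0.684, Per3 at 6.78 ± 1.18, Per2 at 5.67 ± 0.845, and Arntl at 3.24 ± 0.278. Arntl, the partner of Clock, was thus the lowest of the 10 in both tissues on this scale.

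**Figure D1:**
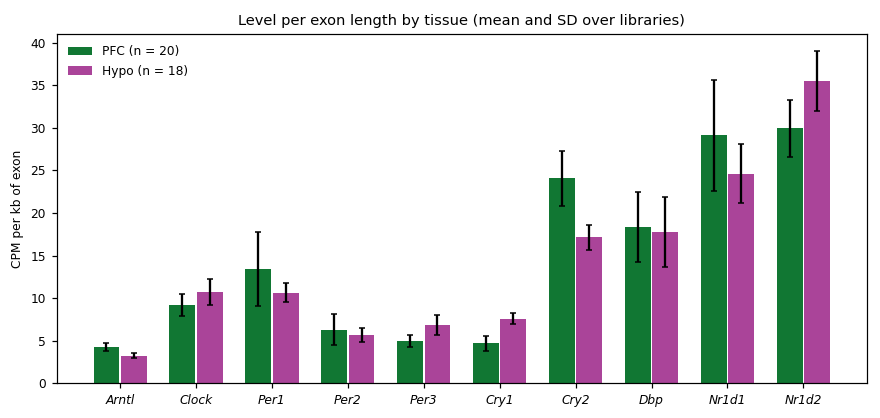
Level of each clock gene per kilobase of exon, in CPM, as the mean over the libraries of a tissue with the SD as bar (20 PFC and 18 Hypo libraries). Nr1d2 and Nr1d1 have the highest bars and Arntl the lowest, and Cry1 stands at 4.69 in the PFC against 7.59 in the Hypo.

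Between the tissues, 6 of the 10 clock genes differed in a model of all 38 libraries that held the 8 groups and the RNA integrity number (RIN), against 66.6% of all 12494 genes tested, so that the members' share was near that of genes in general. Arntl was higher in the PFC by 0.66 on the log2 scale (SE 0.082), Nr1d1 by 0.66 (SE 0.115), Cry2 by 0.59 (SE 0.072), and Per1 by 0.37 (SE 0.161). Cry1 fell by 0.73 (SE 0.109) from the Hypo to the PFC, and Per3 fell by 0.39 (SE 0.112). The adjusted p was 1.36e-08 for Arntl, 1.1e-08 for Cry2, 4.33e-07 for Cry1, 6.6e-06 for Nr1d1, 0.0028 for Per3, and 0.041 for Per1 (edgeR quasi-likelihood test, Benjamini-Hochberg). Clock, Per2, Dbp, and Nr1d2 did not pass, with log2 differences of 0.07, 0.13, 0.15, and -0.0023. In bulk tissue, a cell type that is rarer and one that holds less of a transcript per cell cannot be told apart.

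The 2 fits that took the mouse as a replicate block kept the calls of Arntl, Cry1, Cry2, and Nr1d1. The call of Per1 was lost with the block in limma-voom (adjusted p = 0.054), and with an edgeR term per mouse, on the 13 mice with both tissues, those of Per1 (adjusted p = 0.17) and Per3 (adjusted p = 0.082) were both lost. Leaving out single libraries ended the call of Per1 for 12 of the 38, and its log2 difference was 0.26 (adjusted p = 0.27, edgeR) without the Hypo of WT male 423, whose RIN of 6.8 was the lowest of that tissue. RIN lay between 6.7 and 8.9 for PFC and between 6.8 and 9.3 for Hypo libraries, and without it in the model Dbp and Per2 were called as well. All Hypo libraries but that of WT male 423 were at 8.8 or more. All PFC libraries but that of WT female 395 (8.9) were at 8.3 or less, so RIN and tissue were nearly confounded. Without WT male 423 the tissue difference was -0.92 for Cry1 and 0.05 for Dbp.

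Of the other genes of the clock, 12 of the 14 listed partners were tested, and 6 were higher in the PFC and 3 in the Hypo, against 32% and 34.6% of all genes. Npas2, a paralog of Clock, was higher in the PFC by 2.88 (SE 0.096), and Bhlhe40, an E-box repressor, by 1.32 (SE 0.125). Fbxl21, a ubiquitin ligase subunit that acts on CRY proteins, fell by 1.64 from the Hypo to the PFC (SE 0.145). Of the 6 listed output genes, 5 were higher in the PFC (Tef, Hlf, Usp2, Wee1, and Cipc), led by Usp2 at 1.77 (SE 0.090) and Hlf at 1.56 (SE 0.081).

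The genotype was compared next, as Ube3a2X minus WT averaged over the sexes within each tissue. No clock gene was called by edgeR in either tissue, against 0.0183% of 10900 genes in the PFC (2 genes) and 0.00843% of 11869 in the Hypo (1 gene). None of the members reached an unadjusted p under 0.05 in the PFC, where 7.9% of all genes did, and Cry1 and Per2 reached it in the Hypo, where 5.24% did. DESeq2, limma-voom, and every other fit that was tried, the 38 that left out 1 library among them, also called no member. The genotype estimate farthest from 0 among members was that of Per1 in the PFC.

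Per1, a repressor that is also induced by neuronal activity, had the widest spread of the members in the PFC. Its level there was 68.7, 74.2, 53.3, 79.6, and 63.6 CPM in WT females and 71.1, 56.5, 74.1, 40.0, and 73.4 CPM in Ube3a2X females. In males it was 69.3, 81.1, 69.2, 116.7, and 118 CPM in WT and 60.2, 79.3, 48.4, 142 and 70.6 CPM in Ube3a2X. The groups overlapped widely, and the highest and the lowest value over all males both came from Ube3a2X mice. The fitted log2 difference of Per1 was -0.27 (SE 0.201, adjusted p = 0.78, edgeR), that of Per2 was -0.11 (SE 0.187), and that of Per3 was -0.12 (SE 0.072). In the Hypo, the genotype estimates were -0.05 (SE 0.073) for Per1 and -0.18 (SE 0.081, unadjusted p = 0.043, adjusted p = 0.93, edgeR) for Per2.

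Cry1, whose protein is the stronger of the CRY repressors, differed by -0.05 (SE 0.085) in the PFC and by -0.13 (SE 0.053, unadjusted p = 0.029, adjusted p = 0.92, edgeR) in the Hypo. In Hypo males, Cry1 was at 26.9, 26.3, 25.3, and 26.0 CPM in WT and at 24.1, 24.9, 23.1, 24.3, and 23.9 CPM in Ube3a2X mice. How many of all genes separate these groups in the same way was not counted. The difference within males was -0.12 (SE 0.076, adjusted p = 0.59, edgeR), where 0% of all genes were called (0 to 49 without a single library, the most without WT male 403). The summed level of 5 inhibitory neuron markers in these males was 1042 to 1235 CPM in WT and 711 to 964 CPM in Ube3a2X, with 3 of the 5 lower and 1 higher at an unadjusted p under 0.05. All 5 oligodendrocyte markers were higher in Ube3a2X males at that p, and their sums overlapped (3030 to 4191 CPM in WT and 3681 to 4442 CPM in Ube3a2X). None of these inhibitory and oligodendrocyte markers was called or at 0 in any library. The suprachiasmatic markers summed to 178 to 311 CPM in WT and 136 to 304 CPM in Ube3a2X males, and the microglial markers to 193 to 216 and 180 to 198 CPM. The astrocyte markers summed to 2035 to 2300 and 2078 to 2325 CPM. The part of any of these markers in the difference of Cry1 was not tested. In Hypo females the levels of Cry1 overlapped between the genotypes. Cry2 differed by 0.02 (SE 0.059) in the PFC. Of the activators, Arntl differed by -0.09 (SE 0.076) and Clock by 0.02 (SE 0.050) in the PFC, and Clock by -0.03 (SE 0.051) in the Hypo. Without WT female 471 the Hypo estimate of Clock was 0.0025. Arntl and Cry2 were not tested in the Hypo because the filter on low variance, which removed 15% of the genes, took them out. In the fit without this filter they differed there by -0.03 (SE 0.052) and 0.06 (SE 0.052).

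Of the outputs, Nr1d1 differed by 0.02 in both tissues (SE 0.121 in the PFC and 0.064 in the Hypo), and Nr1d2 by -0.03 (SE 0.065) and -0.01 (SE 0.047). Without WT female 471 the Hypo estimate of Nr1d1 was -0.015. Dbp differed by -0.02 (SE 0.087) in the PFC and by -0.11 (SE 0.071) in the Hypo. In WT females of the Hypo, Dbp was at 46.1, 52.1, 62.5, and 95.2 CPM, the last value being that of mouse 471, and in Ube3a2X females at 44.2, 45.5, 58.3, 51.6, and 49.3 CPM. Without that library the difference of Dbp was -0.16 (SE 0.052, unadjusted p = 0.0073, adjusted p = 0.65, edgeR).

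**Figure D2:**
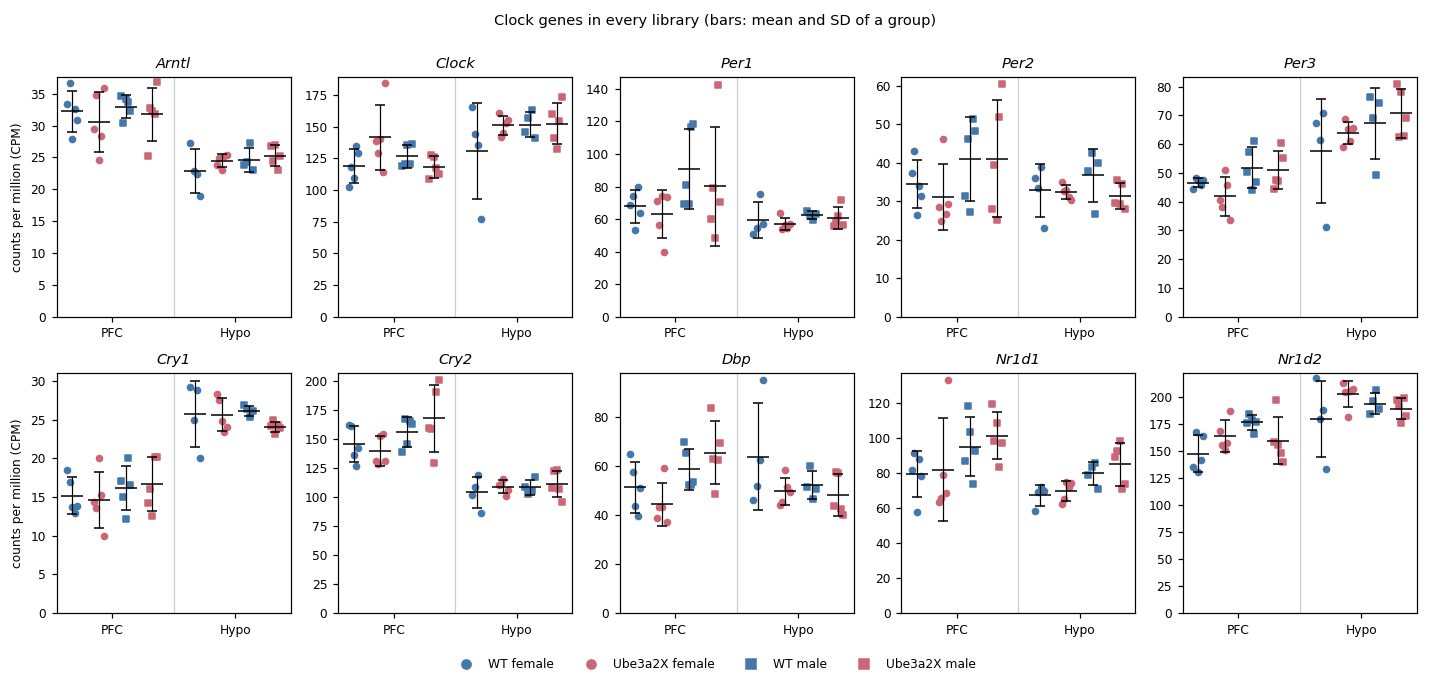
CPM of each clock gene in every library, one panel per gene, with PFC on the left and Hypo on the right of each panel. Points are libraries (circles female, squares male, blue WT, red Ube3a2X) and bars are the mean and SD of a group. Over both sexes, WT and Ube3a2X points overlap for each gene in both tissues, and the isolated Hypo points of Dbp at 95.2 CPM and of Clock at 77.1 CPM are the same WT female.

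The interaction of sex and genotype asks whether the transgene had a different effect in males and females. No clock gene was called for it in either tissue, where edgeR called 0% of all PFC genes and 0% of all Hypo genes, with 2745 genes at an unadjusted p under 0.05 in the PFC and 820 in the Hypo. DESeq2 called 778 of all genes for it in the PFC and no member. Clock was closest in the PFC, at -0.21 (SE 0.099, unadjusted p = 0.046, adjusted p = 0.19, edgeR). Its level there was 102, 118, 109.5, 135, and 129 CPM in WT females and 139, 129.5, 140.4, 114, and 184 CPM in Ube3a2X females, and 119, 121, 135.7, 120.5, and 136.5 CPM in WT males and 108, 128, 126, 117, and 112 CPM in Ube3a2X males. Without the PFC of Ube3a2X female 462, the interaction of Clock was -0.35 (SE 0.101, adjusted p = 0.043, edgeR), and 1041 genes were then called. Of the 20 fits without a single PFC library, this was the only 1 that called a member. The highest Clock value, 184 CPM in Ube3a2X female 468, came from the PFC library with the fewest reads (36.9 M) and the most uneven coverage (0.717). No member was called in the fit without that library. Over the 20 fits without a single PFC library, the number of genes called moved between 0 and 1624. Within the females alone and within the males alone, no member was called in either tissue, where at most 0.0275% of all genes were (0.00917% in PFC females, 0.0275% in PFC males, 0.00843% in Hypo females, and 0% in Hypo males). In PFC males the count of all genes moved between 1 and 36 (without Ube3a2X male 253), against 3, when single libraries were left out. In PFC females it moved between 1 and 7 (without WT female 93), and in Hypo females between 0 and 2, against 1 in each. The genotype effect was not found to differ between the tissues for any member or any gene (0% of 12494, with 987 at an unadjusted p under 0.05), and the largest difference among members was that of Per3 at -0.31 (SE 0.150, adjusted p = 0.62, edgeR).

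The lists of partners, outputs, and genes that respond to stimuli were examined in the same fits. Of the clock partners, none of 11 tested in the PFC and none of 12 in the Hypo was called for genotype, with medians of -0.06 and -0.05 against 0.01 and -0.01 over all genes. Of the 4 output genes tested in each tissue, none was called. Of the 10 listed immediate early genes, which neuronal activity induces within minutes, 8 were tested in the PFC and none was called there for genotype or for the interaction. All 8 estimates of the interaction were below 0, with a median of -0.99 against 0.0038 over all genes, and none had an unadjusted p under 0.05. Of 8 genes that respond to glucocorticoids, the hormones of the adrenal rhythm, none was called for genotype in either tissue, and Zbtb16 was lowest in the Hypo at -0.54 (SE 0.219, adjusted p = 0.92, edgeR).

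The one member called for genotype, sex, or their interaction within a tissue was Nr1d1, and it differed between the sexes. In the Hypo it was higher in males by 0.33 on the log2 scale (SE 0.062, adjusted p = 0.012, edgeR with Benjamini-Hochberg), where 2.29% of all genes were called and 1.15% were higher in males. The number of all genes called, 272, moved between 83 (without WT female 398) and 663 (without WT male 403) when single libraries were left out. The level of Nr1d1 was 58.5, 69.1, 72.2, and 69.9 CPM in WT females and 62.3, 65.4, 75.0, 72.4, and 74.7 CPM in Ube3a2X females. In males it was 79.3, 83.7, 85.9, and 71.1 CPM in WT and 89.4, 92.8, 98.4, 71.0, and 73.8 CPM in Ube3a2X. All 9 males lay above the median of the females, and 6 of them above the highest female. Markers of other cells also differed between the sexes in the Hypo. Camk2a (0.20, SE 0.041), of cortical excitatory neurons, Gfap (0.51, SE 0.095), of astrocytes, Kl (0.36, SE 0.074), of choroid plexus, and Agrp (0.83, SE 0.189), of hypothalamic neurons, were called and higher in males, and the 3 tested microglial markers were higher at an unadjusted p under 0.05. Of the 7 hypothalamic markers only Agrp and Pomc were above 0, with a median of -0.17, and Hcrt and Pmch were lower in males at an unadjusted p under 0.05. Of 5 markers of inhibitory neurons, 1 was above 0, with a median of -0.21, and Gad1 and Gad2 were lower at that p. All 4 endothelial markers were below 0 (median -0.11, 1 at that p), all 3 thalamic markers were above 0 (1 at that p), and 4 of the 7 tested markers of the suprachiasmatic nucleus were above 0 (median 0.15, 1 at that p). Of the 3 tested astrocyte markers, 1 was below 0. The 6 cortical excitatory markers summed to 289 to 504 CPM in WT females, 458 to 542 CPM in Ube3a2X females, 518 to 642 CPM in WT males, and 509 to 607 CPM in Ube3a2X males. The 5 microglial markers summed to 165 to 192 CPM over the females and 180 to 216 CPM over the males. The 2 tested pituitary markers had a median of -1.15 and were not called. None of these markers was at 0 in any Hypo library, and their part in the difference of Nr1d1 was not tested. On log2-CPM without covariates the males were higher by 0.26 (exact permutation test of the sexes within each genotype, two-sided, p = 0.0031).

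In the PFC, Nr1d1 was higher in males by 0.39 (SE 0.121, unadjusted p = 0.0048) and did not pass the adjustment (adjusted p = 0.38, edgeR), where 0.0917% of all genes were called and 0.0183% were higher in males. The count of all genes called, 10, moved between 5 and 16 when single libraries were left out. There 9 of 10 males lay above the female median, and the highest library of all, at 133 CPM, was Ube3a2X female 468. It was also the PFC library with the fewest reads (36.9 M) and the most uneven coverage (0.717). Without that library the difference was 0.47 (SE 0.096, adjusted p = 0.089, edgeR). Dbp was likewise higher in PFC males, by 0.28 (SE 0.088, unadjusted p = 0.0047, adjusted p = 0.38, edgeR), with all 10 males above the female median and 4 above the highest female. In the Hypo the estimate of Dbp was 0.04 (SE 0.069), with 3 of 9 males above the female median and 0 above the highest female. On log2-CPM without covariates it was -0.146 there. The 3 markers of thalamus were also above 0 between the sexes in the PFC, with a median of 0.22 and 2 of them (Tcf7l2 and Prkcd) at an unadjusted p under 0.05. Of the 4 endothelial markers 2 were above 0, with a median of 0.026, and 1 of these (Flt1) reached that p. The thalamic markers summed to 8.89 to 20.9 CPM over the females and 13.7 to 28.3 CPM over the males, none was at 0 in any library, and their part in these differences was not tested. The difference between the tissues in the effect of sex was not tested.

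The other members showed no call between the sexes. Nr1d2, the paralog of Nr1d1, was at 0.14 (SE 0.067) in the PFC and -0.08 (SE 0.046) in the Hypo. Per1 was at 0.30 (SE 0.212) in the PFC and 0.10 (SE 0.071) in the Hypo, and Per3 at 0.14 (SE 0.075) and 0.03 (SE 0.073). Without WT female 471 the Hypo estimate of Per3 was -0.020. Arntl and Clock lay within 0.02 of 0 in the PFC. Among the partners, Ciart, a repressor of the Arntl and Clock pair, was at 0.41 in the PFC (SE 0.090, unadjusted p = 0.00021, adjusted p = 0.13, edgeR), and 4 of 11 partners were higher in PFC males at an unadjusted p under 0.05 with none lower, where 964 of all 10900 genes reached that p in either direction. Of the 8 glucocorticoid-responsive genes tested in the Hypo, Fkbp5, a cochaperone of the receptor, was called and was higher in males by 0.44 (SE 0.066, adjusted p = 0.003, edgeR). Only 2 of the 8 were above 0, their median was -0.089 against -0.0096 over all genes, and Tsc22d3 was lower in males at an unadjusted p under 0.05 (-0.31, SE 0.133). The calls between the sexes in the Hypo rested on the surrogate variables, without which 7 genes were called in place of 272.

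Exons of Nr1d1 overlap those of Thra, a thyroid hormone receptor gene on the opposite strand, over 263 bases. Thra had a median of 31248 reads per PFC library and 28955 per Hypo library, against 4887 and 5122 for Nr1d1. Thra itself was at 0.09 (SE 0.038) between the sexes in the Hypo and 0.19 (SE 0.076) in the PFC, and was not called in either. Reads on the expected strand made up 91.5 to 99.1% of those in PFC libraries and 95.7 to 99.03% of those in Hypo libraries. In the PFC this share differed with genotype. All WT libraries there lay at 92.5 to 95.6%, while Ube3a2X males 238, 253, 267, and 402 and Ube3a2X females 462 and 468 lay at 97.4% or more. With this share as a further covariate, an alternative chosen after seeing the data, the sex difference of Nr1d1 in the Hypo was 0.33 (SE 0.071, adjusted p = 0.045, edgeR). Exon overlaps with a gene on the opposite strand also exist between Dbp and Sphk2 (539 bases), Cry2 and D930015M05Rik (295 bases), and Arntl and Gm45355 (33 bases).

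The call of Nr1d1 in the Hypo held with limma-voom (adjusted p = 0.015), with DESeq2 (adjusted p = 5.35e-05), and with RLE size factors, and was lost without surrogate variables (0.29, adjusted p = 0.21) and with 2 components of the quality measures in their place (0.28, adjusted p = 0.12). It was also lost without the Hypo of WT female 262 (0.29, adjusted p = 0.081) or of Ube3a2X male 258 (0.31, adjusted p = 0.0501), and was kept without WT female 471 (0.30, adjusted p = 0.0061, all edgeR unless named otherwise).

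**Figure D3:**
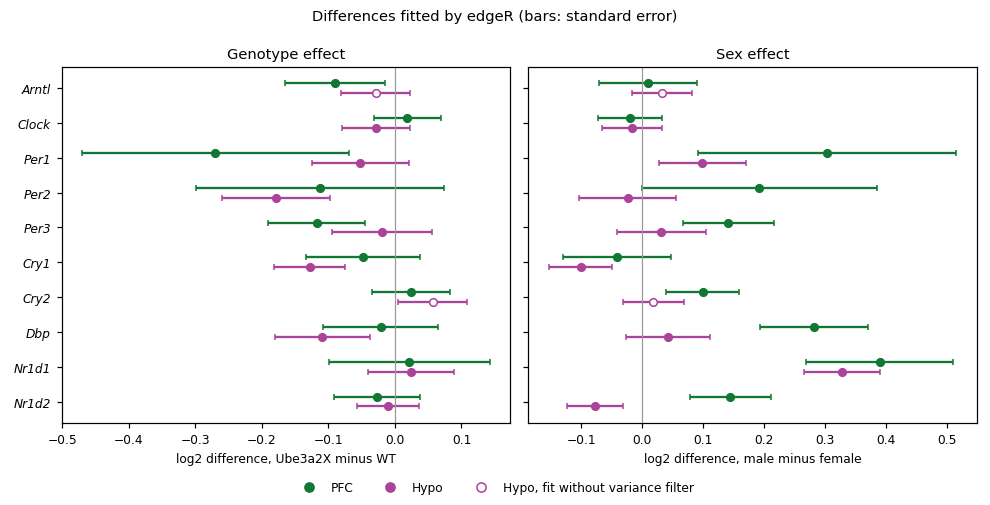
Log2 differences of each clock gene in the PFC (green) and the Hypo (purple) with the standard error as bar, for Ube3a2X minus WT on the left and male minus female on the right. Open circles mark Arntl and Cry2 in the Hypo, taken from the fit without the variance filter. Nr1d1 stands at 0.39 and 0.33 in the sex panel, and the genotype estimate farthest from 0 is that of Per1 at -0.27.

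The spread between mice of the same group was examined next. Within groups of the PFC the SD of log2-CPM was 0.408 for Per1 and 0.398 for Per2, above 94.1% and 93.6% of all genes. Nr1d1, at 0.299, was above 81.9%, and Dbp, at 0.257, above 71.9%. Arntl, Clock, Per3, Cry2, and Nr1d2 had an SD of 0.143 to 0.177, below the median of all genes of 0.193. In the Hypo the order was different. Per3 at 0.295 and Dbp at 0.291 spread most, and Per1 had an SD of 0.151, below the median of all genes of 0.198. The spread of Dbp and Per3 there included that of WT female 471. After RIN and the surrogate variables the median SD of all genes was 0.129 in the PFC and 0.101 in the Hypo, and the place of some members among all genes moved. In the Hypo, Per1 (SD 0.151) was then above 77.8% of genes, Dbp (0.151) above 77.9%, Per3 (0.163) above 81.7%, and Per2 (0.176), the widest of the members, above 84.9%, so that Dbp and Per3 kept about the rank they had before, at 77.4% and 78.2%. In the PFC, Arntl was then above 72.3% of genes, Per3 above 67.1%, and Nr1d2 above 56.8%, and Per1 and Per2 stayed at the top, above 98.9% and 98.8%.

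The covariation of the members was measured on residuals of log2-CPM after group, RIN, and 2 surrogate variables. Over the 45 pairs of members, the median absolute correlation was 0.300 in the PFC and 0.289 in the Hypo, against 0.261 and 0.294 over all pairs of genes. In each tissue 3 pairs (6.67%) had an absolute correlation of 0.7 or more, against 3.29% and 5.79% of all pairs. Without WT female 471 there were 2 such pairs in the Hypo, Clock with Cry2 (r = -0.76) and Per3 with Nr1d1 (r = -0.72). After group alone there were 5 of 45 in each tissue, where 11.5% of all pairs reached this value in the PFC and 23.8% in the Hypo.

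In the PFC the strongest pairs joined Per2 to other repressors. Per2 and Cry2 had r = 0.87 (rho = 0.86), Per2 and Cry1 had r = 0.79 (rho = 0.85), and Per1 and Per2 had r = 0.74 (rho = 0.73, n = 20 libraries for each). The permutation p of r was 5.0e-05, 0.00019, and 0.0025, unadjusted over the 45 pairs computed in each tissue. The shuffled residuals already had group, RIN, and surrogate variables fitted, so each permutation p of a pair is approximate. Without the 2 libraries farthest from the median of the first gene these correlations were 0.87, 0.72, and 0.76. They were similar after group alone, at 0.79, 0.73, and 0.69. Per2 was at 26.5 to 43.1 CPM in PFC WT females, 24.9 to 46.1 CPM in Ube3a2X females, 27.2 to 51.4 CPM in WT males, and 25.2 to 60.5 CPM in Ube3a2X males. In the Hypo, Per2 and Cry1 were again correlated (r = 0.71, permutation p = 8.0e-05, rho = 0.76, n = 18 libraries), and r was 0.69 without WT female 471, while Per2 and Cry2 had r = 0.03. The edgeR test of the slope of Cry1 on Per2 there gave a far larger unadjusted p, 0.027.

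A second pair, the E-box targets Dbp and Nr1d1, had r = 0.68 (permutation p = 0.0027, rho = 0.60) in the PFC and r = 0.75 (permutation p = 0.0073, rho = 0.61) in the Hypo. Without the 2 farthest libraries these were 0.64 and 0.40. After group alone it had r = -0.02 in the PFC, and the residual correlation of the Hypo was 0.45 without WT female 471. Arntl, which peaks opposite to Dbp in a rhythm, had r = 0.04 with Dbp in the PFC and 0.29 in the Hypo, and with Nr1d1 0.11 and 0.55. After group alone, Arntl and Dbp had r = -0.17 in the PFC and -0.51 in the Hypo, and the latter was -0.29 without WT female 471. Clock and Dbp had r = -0.72 in the PFC and -0.87 in the Hypo after group alone, and -0.36 and -0.51 after RIN and the surrogate variables, and in the Hypo the last value was 0.23 without WT female 471.

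**Figure D4:**
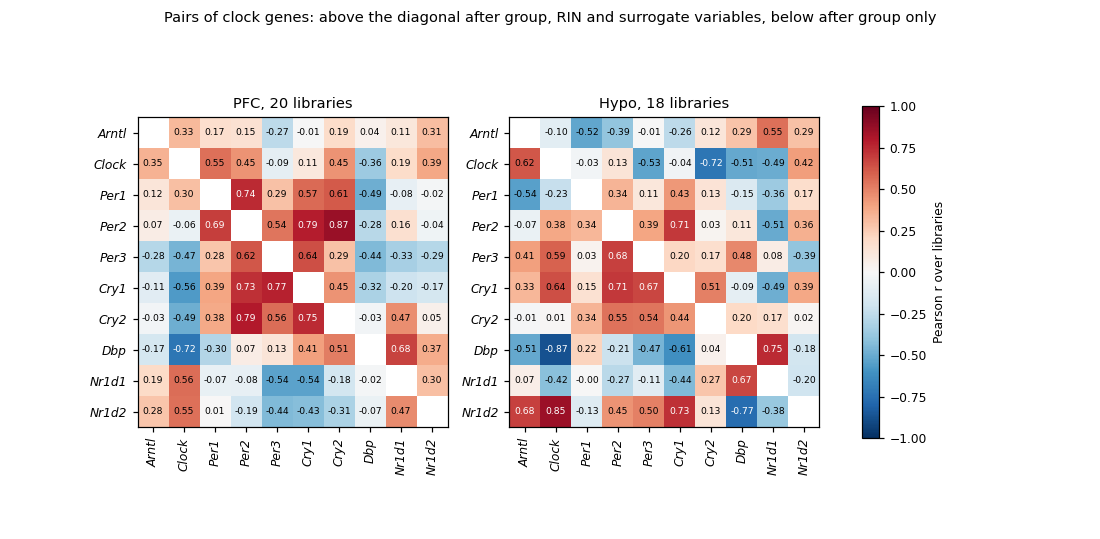
Pearson correlation of each pair of clock genes over the libraries of the PFC (left) and the Hypo (right), above the diagonal after group, RIN, and surrogate variables and below it after group only. Per2 with Cry2 at 0.87 is the strongest pair above the diagonal in the PFC, and Clock with Dbp moves from -0.87 below to -0.51 above the diagonal in the Hypo.

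The same question was tested across all genes by adding the log2-CPM of one clock gene to the model of its tissue and testing the slope of every other gene. On Dbp, no member was called in either tissue (0% of all genes in both), with 513 genes at an unadjusted p under 0.05 in the PFC and 2370 in the Hypo, and limma-voom called none either. Without WT female 398, 214 of all Hypo genes and no member were called on Dbp. Nr1d1 had the smallest p among the members, with a slope of 0.96 per unit of Dbp in the PFC (SE 0.267, unadjusted p = 0.0021, adjusted p = 0.50) and 0.62 in the Hypo (SE 0.179, adjusted p = 0.15, edgeR for both). Without WT female 471 the Hypo slope of Nr1d1 was 0.57 (SE 0.296, unadjusted p = 0.072, edgeR). On Arntl, no member was called, against 0.00918% of all PFC genes (1 gene) and 0% of all Hypo genes, with 1101 and 329 genes at an unadjusted p under 0.05 and none of the members called by limma-voom. Without surrogate variables the Hypo gave 4 called members on Dbp (Clock, Cry1, Nr1d1, and Nr1d2) among 7156 genes, and 3 on Arntl (Clock, Dbp, and Nr1d2) among 4027, so that a large part of all genes moved with either gene there.

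Per2 was added as a reference after its correlations with Cry1 and Cry2 had been seen in the same libraries, so its slopes restate those pairs on the scale of all genes and are no independent evidence of them. On Per2, Cry1 and Cry2 were called in the PFC, where 0.532% of all genes were. The slope was 0.38 for Cry1 (SE 0.082, adjusted p = 0.042) and 0.26 for Cry2 (SE 0.057, adjusted p = 0.048, edgeR for both), and Per1 had the steepest slope at 0.82 (SE 0.185, adjusted p = 0.057). In the Hypo no member was called (0% of all genes, with 369 at an unadjusted p under 0.05), and the slope of Cry1 was 0.36 (SE 0.150, unadjusted p = 0.027, adjusted p = 0.9998, edgeR). The calls in the PFC rested on the settings. The slope test was also checked by adding known slopes to some genes of the real PFC counts. With added slopes steeper than those of Cry1 and Cry2, it recovered few of these genes and called some unchanged ones. That setting was unlike the slopes called here, and it limits each call on a slope in this tissue. No member was called without surrogate variables, with quality components, or with the other filter on low counts, and leaving out single libraries ended at least 1 of these calls for 16 of the 20, 13 of them with no member called. Over those 20 fits the number of all genes called on Per2 moved between 2, without Ube3a2X male 238, and 75, against 58 with every library.

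The lists had the following slopes on the references. In the PFC, 7 of 8 immediate early genes had a negative slope on Dbp at an unadjusted p under 0.05, where 513 of all 10899 genes reached it in either direction. Their median slope was -2.43 against 0.03 over all genes, and Arc was at -5.11 (SE 1.030, adjusted p = 0.24, edgeR). Per1 had a slope of -1.07 on Dbp there (SE 0.502, adjusted p = 0.997, edgeR). All 8 glucocorticoid-responsive genes had a negative slope on Dbp in both tissues, 3 of them in each at an unadjusted p under 0.05, with medians of -0.29 in the PFC and -0.55 in the Hypo, and none was called. Nfil3, a repressor that binds D-boxes in competition with Dbp, had a negative slope on Dbp in both tissues, at -1.40 in the PFC (SE 0.292, unadjusted p = 0.00013, adjusted p = 0.16) and -1.26 in the Hypo (SE 0.374, adjusted p = 0.15, edgeR for both). On Per2, all 8 immediate early genes had a positive slope in the PFC (median 1.05) and a negative one in the Hypo (median -0.70), with none called. On the same reference, all 8 glucocorticoid-responsive genes had a positive slope in both tissues, with medians of 0.17 in the PFC and 0.76 in the Hypo against 0.00 and 0.01 over all genes. Of these, Zbtb16 was called in the PFC at 0.53 (SE 0.114, adjusted p = 0.042, edgeR), and none in the Hypo. Bhlhe40 was the 1 partner called on Per2 in the PFC, at 0.64 (SE 0.120, adjusted p = 0.022, edgeR). Both calls come from the fit whose calls fell to 2 genes without 1 library. On Arntl in the PFC, every tested marker of 6 other cell or region lists had a negative slope. The medians were -1.05 for 5 oligodendrocyte, -0.37 for 5 astrocyte, -0.35 for 5 microglial, -0.42 for 4 endothelial, -0.94 for 3 striatal, and -0.50 for 3 thalamic markers, against 0.02 over all genes, and 4 oligodendrocyte, 2 striatal, 1 astrocyte, 1 microglial, and 1 endothelial marker had an unadjusted p under 0.05. On Per2 in the Hypo, all 5 oligodendrocyte markers had a negative slope, 4 of them at that p, with a median of -0.43 against 0.0062 over all genes, and none was called in either fit. Whether cell composition, activity, hormone level, or the hour of collection had a part in these slopes was not tested.

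Outside the members, the genes most like Dbp were ranked by the smaller of their absolute residual correlations in the tissues, with the same sign required. Cirbp, a cold-inducible RNA-binding protein, was first of 12568 genes with r = 0.79 in the PFC (20 libraries) and 0.75 in the Hypo (18 libraries), and Nr1d1 was at rank 15. The next were Ppp2r1b (-0.74 and -0.80), Pvr (-0.73 and -0.74), Cdc42se1 (-0.73 and -0.72), and Zswim3 (-0.72 and -0.73). For Arntl they were Tmem132c (-0.64 and -0.73), Col19a1 (0.62 and 0.61), Spsb1 (-0.61 and -0.62), Ralb (-0.61 and -0.62), and Lcp1 (-0.92 and -0.59), and the first member was Nr1d2 at rank 718. The libraries of a tissue share RNA quality and depth, so these are descriptions with no test. The Hypo correlations include WT female 471, whose Dbp was the highest at 95.2 CPM, and the ranking was not repeated without it. Without that library the Hypo correlation of Dbp with Nr1d1 was 0.45.

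The 13 mice with both tissues allow a further comparison. They show whether a clock gene that was high in the PFC of a mouse, relative to its group, was also high in the Hypo of that mouse. With the values centred on each group, 6 of the 10 members had a correlation above 0 between the tissues, and none had one above 0 with a p under 0.05 (exact permutation of the mice within genotype and sex, two-sided, 17280 arrangements), where 1.72% of 12569 genes did. The median correlation of the members was 0.12, against -0.11 over all genes, of which 36.8% were above 0. No gene passed the adjustment over all genes in this exact permutation test (216 genes above and 282 below 0 at an unadjusted p under 0.05, smallest adjusted p = 0.98).

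Among the outputs, Nr1d1 had the highest correlation, r = 0.44 (p = 0.11) with rho = 0.60 (p = 0.0045, both exact permutation tests), and r = 0.43 without the 2 mice farthest from the median. Over the 13 tests without a single mouse its r lay between 0.33 (without mouse 267, exact permutation p = 0.21) and 0.61 (without mouse 262, exact permutation p = 0.012), and the exact permutation p was under 0.05 in 2 of them, the other being that without mouse 468. Nr1d2 had r = 0.37 (exact permutation p = 0.36) and Dbp r = -0.15 (exact permutation p = 0.61). Among the repressors, Per1 had r = 0.28, Cry1 0.13, Per2 0.10, and Per3 -0.06, and of the activators Arntl had 0.23 and Clock -0.15, all with an exact permutation p of 0.43 or more. Cry2 lay farthest below 0 of the 4 members with a negative value, with r = -0.67 (exact permutation p = 0.036, adjusted p = 0.98) and only 3 of 13 mice on the same side of their group mean in both tissues. Without the 2 farthest mice its r was -0.43, and over the 13 tests without a single mouse it lay between -0.80 and -0.48, with a p of 0.05 or more in 6 of them.

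After RIN and the surrogate variables of each tissue were also removed, 9 of the 10 members had a correlation above 0, against 64.98% of all genes, and the median was 0.24 against 0.13. Dbp then had r = 0.76 (exact permutation p = 0.0086, adjusted p = 0.54) with rho = 0.63, was on the same side in 10 of 13 mice, and had r = 0.58 without the 2 farthest mice. It was the 1 member above 0 with a p under 0.05, where 6.18% of all genes were. Nr1d2 had r = 0.50, Nr1d1 0.47, and Clock 0.44, each with an exact permutation p of 0.10 or more, and Cry2 remained below 0 at -0.57. The direction for Dbp, Clock, and Per3 thus depended on this step, and that for the other 7 members did not.

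**Figure D5:**
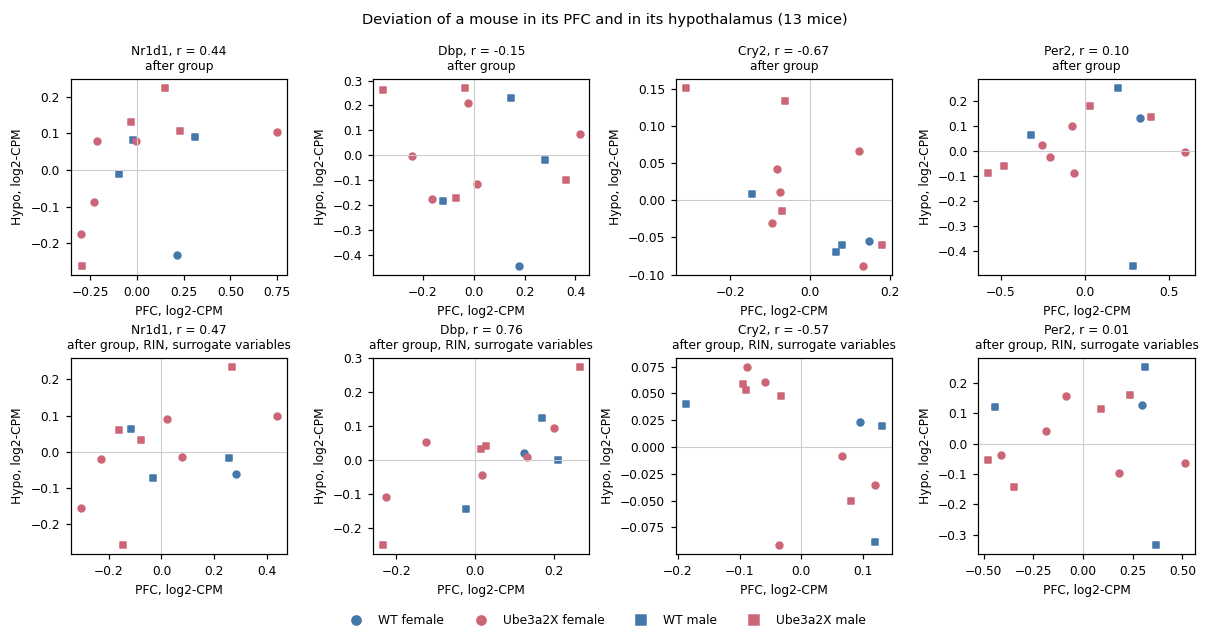
Deviation of log2-CPM in the PFC (x axis) against that in the Hypo (y axis) of the same mouse for Nr1d1, Dbp, Cry2, and Per2, after group in the upper row and after group, RIN, and surrogate variables in the lower row. Each point is 1 of 13 mice. Nr1d1 is at r = 0.44 and 0.47, Dbp moves from -0.15 to 0.76, and Cry2 is at -0.67 and -0.57.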

How the data were processed

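The authors sequenced stranded poly(A) libraries in pairs, aligned the reads with STAR to GRCm38/mm10, and deposited a read count for each gene from featureCounts, not normalized. Quality values were deposited with them: the RIN and AT dropout as a score, bases by region and strandedness as a fraction, and coverage bias as a ratio, which the authors obtained with Picard and a Bioanalyzer. Authors' comparisons were not used.

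Within each tissue, a gene was dropped if 2 or more libraries held under 100 reads of it, then the 15% with the lowest variance were dropped, which left 10900 PFC and 11869 Hypo genes. Counts were tested with edgeR 4.0.16 (TMM, robust quasi-likelihood F test, R 4.3.3) in a model of sex and genotype groups, RIN, and 2 surrogate variables (sva 3.50.0), with Benjamini-Hochberg adjustment over all genes and a threshold of 0.05. The tissues were compared in 1 model of 8 groups and RIN. limma 3.58.1 and DESeq2 1.42.0 were alternatives. CPM used TMM library sizes, and log2-CPM a prior count of 2. Pairing of the tissues comes from the mouse numbers in the labels (13 mice), and over all genes the median correlation of the deviations of both tissues was -0.11. P-values measure the spread between mice of a group.

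The members and gene lists were chosen with earlier results of these data known. The text names the 10 members, Ube3a as label check, list genes that passed a test or up to 4 per list by smallest p, and the 5 genes most like Dbp and Arntl. Arc, Fkbp5, and single libraries were singled out under this rule or after their values were seen. The strand covariate, the Per2 reference, and the pairs without Hypo WT female 471 were chosen after seeing the data. Tests were checked on simulated counts; there, surrogate variables could take up covariation that many genes share, so calls on slopes are also given without them, and the slope test of the PFC called some unchanged genes.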

Additional observations from a re-analysis of the deposited data

Results flagged for a closer look

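Of the 80 groups of 4 or 5 libraries examined (10 genes in 8 groups), 2 held a library that lay far from the others of its group by Dixon's test, and chance alone flags about 1 in 20 groups. Per2 in the PFC of Ube3a2X female 420 was at 46.1 CPM (5.53 on the log2 scale), against 24.9 to 29.3 CPM in the other 4 libraries of that group. Nr1d2 in the Hypo of the same mouse was at 182 CPM (7.51 on the log2 scale), against 205 to 213 CPM in the other 4. That Hypo library was also the deepest of all, at 381 M reads (M, mega), and the part of depth in this value was not tested.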

How the results depend on the processing

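The absence of called members for genotype, in both tissues and in each sex, held under all alternatives (limma-voom, DESeq2, RLE size factors, no surrogate variables, quality components, the filterByExpr filter, the strand share, and leaving out each library), as did the absence of calls for the interaction in the Hypo and for sex in the PFC. The call of Nr1d1 between the sexes in the Hypo went to 0 members without surrogate variables and with quality components. The 2 members called on Per2 in the PFC went to 0 without surrogate variables, with quality components, and with filterByExpr. On Dbp in the Hypo, 0 members became 4 without surrogate variables, 3 with quality components, and 2 with filterByExpr, and on Arntl in the Hypo 3 without surrogate variables. In the fits without surrogate variables a large part of all genes was called as well, as given above. For quality components and filterByExpr the share of all genes is not given here, so these counts describe nothing particular to the members. The members with a same-mouse correlation above 0 at an unadjusted p under 0.05 went from 0 to 1 with residuals after RIN and surrogate variables. Leaving out each library gave 0 to 1 called members for the PFC interaction and for sex in the Hypo, 5 to 6 for the tissues, and 0 to 2 on Per2 in the PFC, and leaving out each mouse gave 0 to 1 member at that unadjusted p for same-mouse agreement. The causes were not tested. With the mouse as a replicate block, the tissue difference kept 5 called members in limma-voom and 4 with an edgeR term per mouse, against 6, and the block changed no other call of a member between the tissues.

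Estimates that turned their sign were all uncalled differences in the log2 fits, and the turned values lay between -0.15 and 0.15. For genotype in the PFC they were Cry2 -0.031, Nr1d2 0.0019 without surrogate variables, Nr1d1 -0.056, Nr1d2 0.059 with quality components, Cry2 -0.030, Nr1d1 -0.068 with filterByExpr, and Clock -0.020, Cry1 0.041, Cry2 -0.021, Nr1d1 -0.15 with the strand share. For sex in the PFC, Cry1 was 0.011 without surrogate variables, 0.015 with filterByExpr, and 0.00071 with the strand share. For genotype in the Hypo they were Clock 0.098, Per3 0.15, Nr1d2 0.062 without surrogate variables and Clock 0.012, Per3 0.039, Nr1d2 0.011 with quality components. For sex in the Hypo they were Clock 0.11, Per2 0.015, Dbp -0.14 without surrogate variables, Per3 -0.011 with quality components, and Clock 0.0055 with filterByExpr. Between the tissues, Nr1d2 was 0.012 with DESeq2, 0.013 with RLE size factors, 0.055 with filterByExpr, and 0.0085 with the mouse term, and Clock was -0.0038 without RIN. In same-mouse agreement the residual correlations of Clock 0.44, Per3 0.071, Dbp 0.76 turned.

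Leaving out each library also turned some of these estimates, whose ranges were for genotype in the PFC Clock -0.013 to 0.047, Cry2 -0.031 to 0.050, Dbp -0.086 to 0.025, Nr1d1 -0.064 to 0.090, Nr1d2 -0.091 to 0.0072, and for sex in the PFC Arntl -0.050 to 0.074, Clock -0.085 to 0.023, Cry1 -0.11 to 0.026, and for genotype in the Hypo Clock -0.051 to 0.0025, Per3 -0.089 to 0.058, Nr1d1 -0.015 to 0.061, Nr1d2 -0.030 to 0.026, and for sex in the Hypo Clock -0.042 to 0.027, Per2 -0.079 to 0.055, Per3 -0.020 to 0.11, and for tissue difference Nr1d2 -0.040 to 0.041, and for same-mouse agreement Per1 -0.18 to 0.41, Per3 -0.31 to 0.067, Cry1 -0.082 to 0.37, Dbp -0.25 to 0.045. Counts of all genes called moved more than those of members: for sex in the Hypo from 272 to 7 without surrogate variables and to 667 with DESeq2, and for the PFC interaction from 0 to 778 with DESeq2. Leaving out single libraries moved the count for genotype between 1 and 15 genes in the PFC (the most without Ube3a2X male 258) and between 1 and 12 in the Hypo (the most without WT male 403). With 4 or 5 libraries in a group, 1 library can decide a call near the threshold.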
